A study of Mus musculus with 24 samples.

Results

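The imprinted cluster of distal mouse chromosome 7 was followed through RNA-seq of mouse embryonic stem cells (mESCs) that lack single accessory subunits of the ISWI chromatin remodelers. ISWI remodelers use ATP to slide and space nucleosomes, and their accessory subunits (WSTF in WICH, TIP5 in NoRC, ACF1 in ACF, RSF1 in RSF, BPTF in NURF, CECR2 in CERF) set where and how the motor works. The set held 10 genes of 24594 in the count table, listed by symbol: H19, Igf2, Ascl2, Cd81, Tssc4, Kcnq1ot1, Cdkn1c, Slc22a18, Phlda2 and Nap1l4. They lie in this order within 974 kb, at chr7:142575530-143549882 (GRCm38.p6, the RefSeq assembly of mm10). They were chosen by their measured levels and changes in these same libraries, so their values are given as a description and without p-values. All 10 passed the filter on low counts, as did 15682 genes of the table.

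The series held 24 libraries in 5 batches, of which 11 were wild-type (WT) and 13 came from 6 deletion lines. All cells were 129S6/SvEvTac mESCs grown without feeder cells, on gelatin, in medium with serum and leukemia inhibitory factor, with no treatment. Batch A held 2 WT libraries with 2 of Rsf1Δ (rsf1 knock-out) and 2 of WstfΔ (wstf knock-out, gene Baz1b), so both lines were compared with the same WT libraries. Batch B held 2 WT libraries and 2 of Tip5Δ (tip5 knock-out, gene Baz2a), batch C 2 WT and 2 of BptfΔ (bptf knock-out), and batch E 2 WT and 2 of Acf1Δ (acf1 knock-out, gene Baz1a, targeted in 2 rounds). Batch D held 3 WT libraries and 3 labelled cecr knock-out, which are called the libraries labelled Cecr2Δ because Cecr2 mRNA was not lower there. By western blot, the study detected none of the targeted proteins in its deletion lines. These files do not measure the protein, which an mRNA level does not show. Each line is 1 clone made with CRISPR–Cas9, so a difference of the clone and an effect of the deletion cannot be told apart. The labels do not say whether libraries of a line came from separate cultures, and the study's methods call them independent replicates of that clone. Counts were summed over both parental alleles, so which allele a transcript came from was not measured.

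The libraries held 13417755 to 36721585 counts, and a floor of 3 counts corresponded to 0.0837 to 0.22 normalized CPM (counts divided by the TMM-scaled library size, times 1e6). The mRNA of the targeted gene was lower in Rsf1Δ, WstfΔ, BptfΔ and Acf1Δ (log2 fold changes of −2.26, −2.40, −1.97 and −1.72, edgeR adjusted p of 3.39e-17, 7.05e-18, 5.90e-14 and 2.73e-16). It was not called in Tip5Δ (Baz2a, −0.26, edgeR adjusted p = 0.0533). In the group labelled Cecr2Δ, Cecr2 itself was higher by 0.37 on the log2 scale (edgeR adjusted p = 1.54e-04). The libraries of batch C stood apart in holding RNA without poly(A) tails: Rpph1, the RNA of ribonuclease P, lay between 3288 and 4824 normalized CPM there and between 0.0876 and 3.39 in the other batches. The summed level of 6 pluripotency markers (Pou5f1, Sox2, Nanog, Klf4, Esrrb and Zfp42) lay between 2527 and 4117 normalized CPM over all 24 libraries.

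Imprinted genes are expressed mainly or only from the allele inherited from one parent, through DNA methylation that egg or sperm placed on an imprint control region. The cluster holds separate control regions for its H19/Igf2 side and its Kcnq1 side. On the H19/Igf2 side, the unmethylated maternal control region binds CTCF, which keeps shared enhancers from Igf2 and leaves them to H19, whereas the methylated paternal copy lets Igf2 use them. On the Kcnq1 side, the long antisense RNA Kcnq1ot1 is made from the paternal allele and silences neighbours such as Cdkn1c, Phlda2 and Slc22a18 on that allele. The cluster is known for its control of fetal and placental growth. H19 is a maternally expressed long noncoding RNA and the host transcript of miR-675, Igf2 encodes a paternally expressed fetal growth factor, and Ascl2 encodes a transcription factor of trophoblast progenitors.

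H19 lies on the minus strand at chr7:142575530-142578146 (GRCm38.p6) and carries Mir675 at chr7:142577064-142577147. The mature miR-675 sequences from RefSeq are shown because this short RNA is cut from H19, the member with the largest decrease. Capitals mark the seed, bases 2 to 8.
mmu-miR-675-5p, at chr7:142577112-142577133 on the minus strand: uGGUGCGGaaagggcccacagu
mmu-miR-675-3p, at chr7:142577078-142577099 on the minus strand: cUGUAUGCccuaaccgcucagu
The 2 arms carry different seeds. The libraries were not prepared from small RNA, so the mature miRNAs were not measured.

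Upstream sequence was matched in the RefSeq promoter table (GRCm38.p6) for 7 of the 10 genes, with 10 annotated starts, Igf2 having 4. The 250 bases before the start are shown for Igf2 and Ascl2, which had lower means than WT in all 6 lines, and for Kcnq1ot1, the antisense RNA of the second control region. For Igf2 the start farthest downstream is shown. Capitals mark matches, on either strand, to the letters GGGCGG (GC box). The letters TATAAA, the core of a TATA box, were also searched on both strands, as was CCNNNAGNNGGC, a core of the CTCF motif.
Igf2, chr7:142657497-142657746, minus strand: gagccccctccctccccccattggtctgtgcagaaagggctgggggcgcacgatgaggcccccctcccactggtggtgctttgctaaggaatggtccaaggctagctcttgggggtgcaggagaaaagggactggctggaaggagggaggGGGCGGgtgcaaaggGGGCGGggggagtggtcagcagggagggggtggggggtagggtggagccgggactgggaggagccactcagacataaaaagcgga
Ascl2, chr7:142969265-142969514, minus strand: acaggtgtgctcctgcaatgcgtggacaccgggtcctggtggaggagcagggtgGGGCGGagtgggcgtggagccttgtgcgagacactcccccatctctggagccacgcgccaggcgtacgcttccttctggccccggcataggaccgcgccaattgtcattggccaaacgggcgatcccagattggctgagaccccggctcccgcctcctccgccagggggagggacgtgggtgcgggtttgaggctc
Kcnq1ot1, chr7:143296548-143296797, minus strand: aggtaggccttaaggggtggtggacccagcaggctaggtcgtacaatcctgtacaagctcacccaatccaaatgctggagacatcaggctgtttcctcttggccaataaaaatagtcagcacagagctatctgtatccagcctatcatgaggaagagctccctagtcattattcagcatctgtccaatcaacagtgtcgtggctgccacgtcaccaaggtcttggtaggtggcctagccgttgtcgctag
The Igf2 window shown held 2 matches to GGGCGG, the Ascl2 window 1 and the Kcnq1ot1 window 0. The windows of Igf2 starts 1, 2 and 3, not shown, held 0, 0 and 1 matches, with 50.8%, 47.6% and 68.8% G and C. Which Igf2 start these cells used was not measured. GGGCGG was present in 32.7% of the 32851 upstream windows of the same length in the table. None of these 3 windows matched TATAAA, found in 12.4% of all windows, or CCNNNAGNNGGC, found in 7.17%. The Ascl2 window held 67.6% G and C and 19 CpG dinucleotides, the Igf2 window 66% and 6, and the Kcnq1ot1 window 51.2% and 5, where the medians over all windows were 52.4% and 6. A match describes letters and no binding.

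In WT cells the 10 genes covered a wide range of levels. Per kilobase of the length given in the count table, Phlda2, a gene that restrains placental growth, had the highest mean at 118 ± 25.5 normalized CPM per kb (SD, n = 11 libraries). It was followed by Cd81, a tetraspanin of the cell surface, at 73.5 ± 14.4, and by Nap1l4, a histone chaperone of the nucleosome assembly protein family, at 64.1 ± 4.61. H19 followed at 49.7 ± 14.3 and Cdkn1c, the cell cycle inhibitor p57, at 37.5 ± 21.2 normalized CPM per kb. The ranges of neighbours in this order, from Phlda2 down to Cdkn1c and Tssc4, overlapped. Tssc4 had a mean of 17.0 ± 1.63 normalized CPM per kb and Igf2 one of 6.53 ± 3.95, and the ranges of this pair did not overlap. Ascl2, at 2.68 ± 0.951, and Slc22a18, a transporter of the organic cation family, at 1.71 ± 0.244, overlapped with each other and with Igf2. Kcnq1ot1 was lowest at 0.146 ± 0.268 normalized CPM per kb, and at 0.0278 ± 0.0107 without batch C, below every value of Slc22a18.

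Levels also differed between the WT libraries of the 5 batches. In the F test across the 5 WT batches, 8 of the 10 genes passed an adjusted p below 0.01, where 69.4% of all genes tested did. For 5 of the 10, the highest batch mean was more than 2 times the lowest, against 31.9% of all genes. Kcnq1ot1 differed most, from 1.88 normalized CPM in batch D to 62.9 in batch C, a ratio of 33.5. Igf2 followed, from 9.92 in batch C to 92.9 in batch A, a ratio of 9.37. Cdkn1c ran from 30.9 in batch B to 140 in batch D, Ascl2 from 2.79 in batch E to 6.37 in batch D, and H19 from 94.8 in batch B to 190 in batch A. Nap1l4 was the most even, with a ratio of 1.17 between its highest and lowest WT batch. Each line was therefore compared with the WT libraries of its own batch only.

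**Figure D1:**
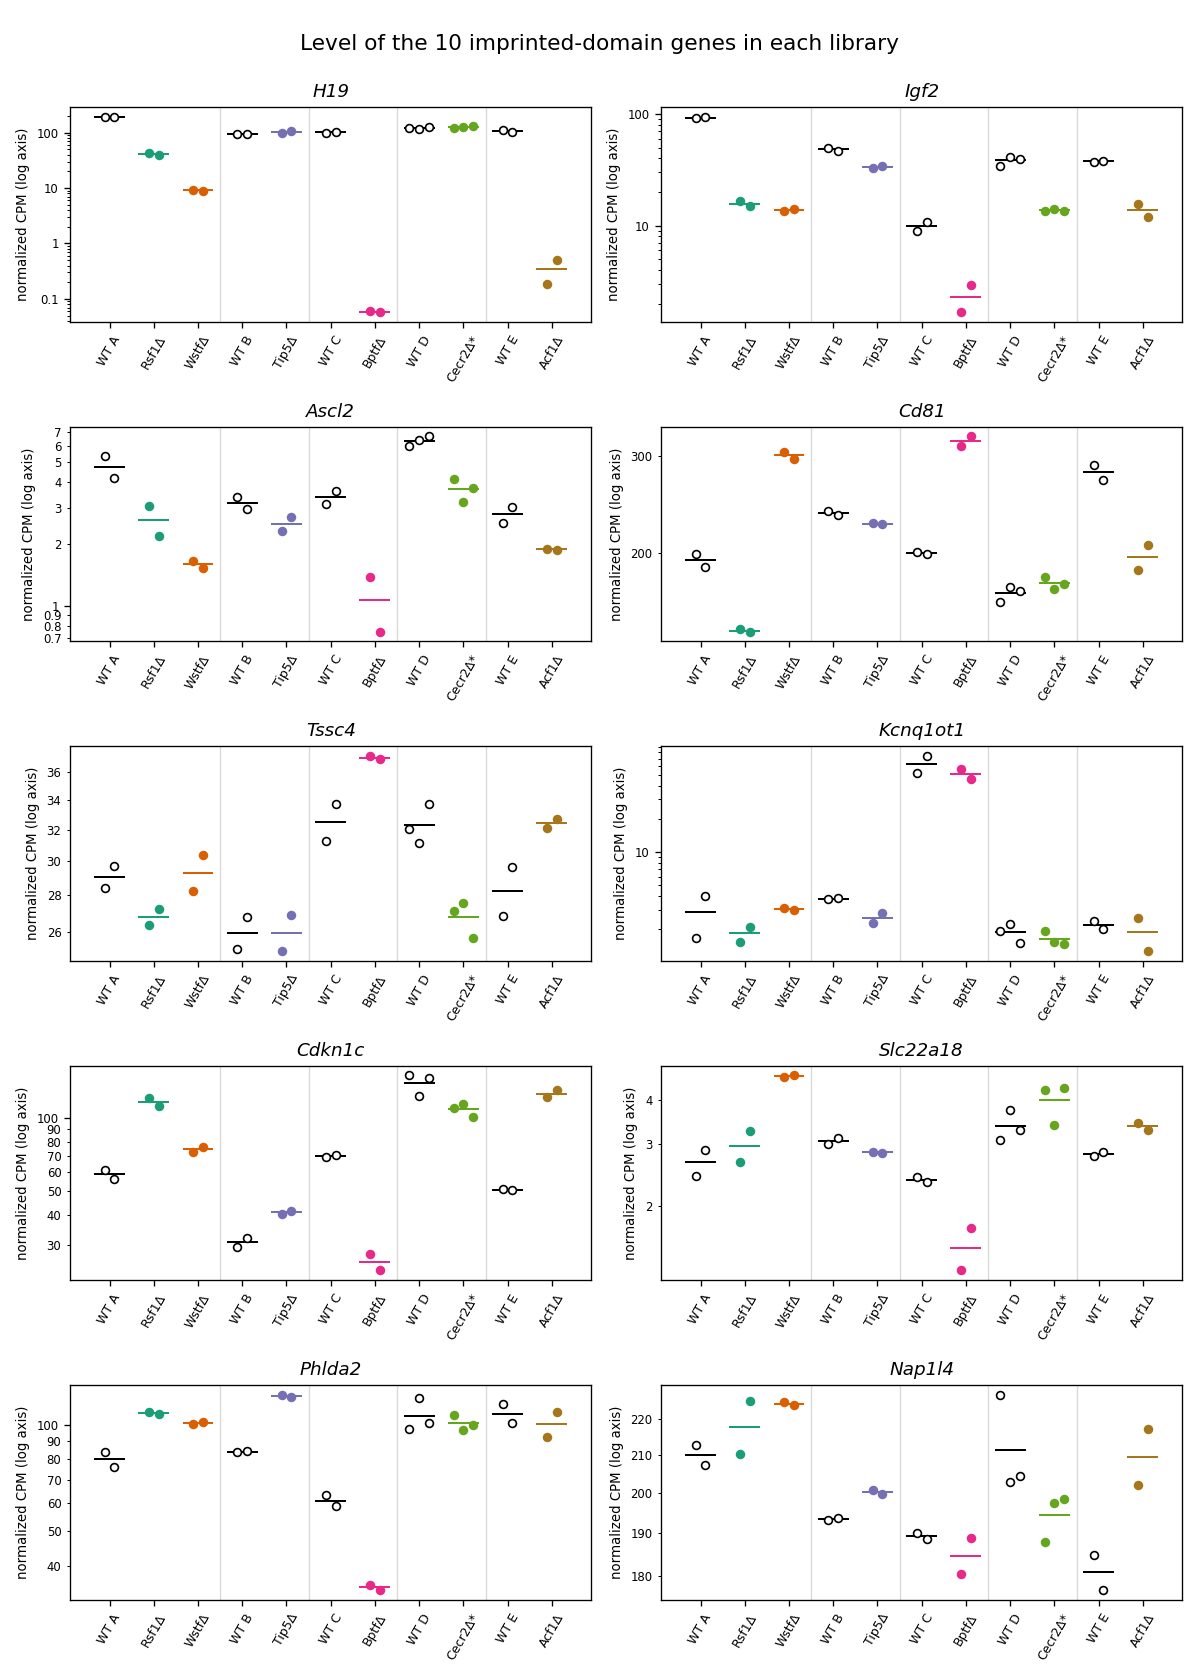
Normalized CPM (log axis, a scale of its own in each panel) of the 10 genes in each of the 24 libraries, by group in batch order. Points are libraries, open for WT and filled for deletion lines, bars are group means, and Cecr2Δ* marks the 3 libraries labelled Cecr2Δ. H19 was lowest in BptfΔ and Acf1Δ, and Kcnq1ot1 lay between 46.1 and 74.3 normalized CPM in the 4 libraries of batch C and at or below 4.0 elsewhere.

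Of the 60 comparisons of a gene with WT (10 genes in 6 lines), 13 passed the study's thresholds of an absolute log2 fold change above 1 and an adjusted p below 0.01 and are referred to as called. Of these, 12 were decreases and 1 an increase. The called genes were H19 and Igf2 in Rsf1Δ, where 5.91% of all genes tested were called (0.65% higher and 5.26% lower), and H19, Igf2 and Ascl2 in WstfΔ, where 10.4% were (3.87% higher and 6.57% lower). In BptfΔ they were H19, Igf2, Cdkn1c and Ascl2, beside 13.8% of all genes (5.25% higher and 8.59% lower). In Acf1Δ they were H19, Igf2 and, as the increase, Cdkn1c, beside 4.45% of all genes (1.14% higher and 3.32% lower). The batch D comparison called Igf2 alone, beside 3.11% of all genes (0.784% higher and 2.33% lower). In Tip5Δ 0 of the 10 genes were called by edgeR or by DESeq2, where edgeR called 2.72% of all genes (0.0829% higher and 2.63% lower), and 3 of the 10 had an unadjusted p below 0.05. In Rsf1Δ 3 genes were called in each of the 4 fits that left out 1 WT library of batch A or 1 Rsf1Δ library: Cdkn1c joined without WT replicate 1 or Rsf1Δ replicate 2, and Ascl2 joined without WT replicate 2 or Rsf1Δ replicate 1. The genes were listed with these changes in view, so the counts describe them and are no evidence of an enrichment. The median log2 fold change over the 10 genes was −0.27 in Rsf1Δ, 0.11 in WstfΔ, −0.03 in Tip5Δ, −0.73 in BptfΔ, −0.16 in Acf1Δ and −0.17 in the group labelled Cecr2Δ. The median over all genes lay between −0.03 and 0.01 in the 6 lines.

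**Figure D2:**
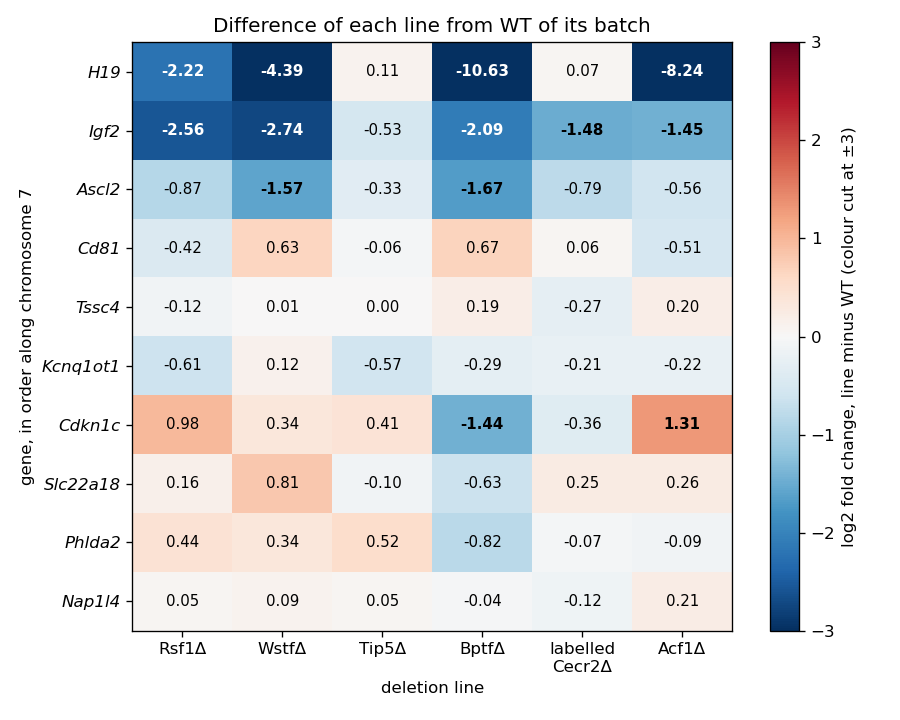
Log2 fold change of each gene (rows, in order along chromosome 7) in each line (columns) against WT of its batch, from the edgeR fit on all libraries. Red is higher and blue lower than WT, colours are cut at ±3, and bold numbers mark the 13 called differences. H19 and Igf2 hold 9 of the 13.

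H19 had the widest range of changes. In Rsf1Δ it measured 42.4 and 39.6 normalized CPM, and in WstfΔ 9.32 and 8.78, against 190 and 191 in the WT libraries of batch A. In BptfΔ each library held 1 count of H19, or 0.0599 and 0.0578 normalized CPM, against 99.1 and 103 in WT of batch C. In Acf1Δ the libraries held 5 and 14 counts, or 0.187 and 0.494 normalized CPM, against 110 and 102 in WT of batch E. In all 4 lines every library lay below every one of the 11 WT libraries, whose lowest value was 94.3. The log2 fold changes were −2.22 ± 0.075 (SE) in Rsf1Δ, −4.39 ± 0.096 in WstfΔ and −8.24 ± 0.14 in Acf1Δ. In BptfΔ the ratio of WT to line from the pooled counts was 1714 (95% exact interval 474 to 14158), and in Acf1Δ it was 307 (197 to 511). These intervals cover counting error only. The fitted value in BptfΔ, −10.63, depends on the prior count at so few reads.

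The remaining lines kept H19 near its WT level. Tip5Δ measured 97.9 and 106 normalized CPM against 95.3 and 94.3 in WT of batch B, a log2 fold change of 0.11 ± 0.071. The libraries labelled Cecr2Δ measured 121, 127 and 131 against 120, 114 and 127 in WT of batch D, a log2 fold change of 0.07 ± 0.057. The groups of batch D overlapped, and those of batch B did not. From lowest to highest percentage of WT, the lines were ordered as BptfΔ and Acf1Δ, then WstfΔ (4.76%), Rsf1Δ (21.5%), the libraries labelled Cecr2Δ (105%) and Tip5Δ (108%). BptfΔ measured 0.0599 and 0.0578 normalized CPM and Acf1Δ 0.187 and 0.494, and the exact intervals of their ratios overlapped. The order of this pair was not tested.

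Igf2 was below WT of its batch in every library of all 6 lines. Rsf1Δ measured 16.6 and 14.9 normalized CPM and WstfΔ 13.7 and 14.1, against 91.7 and 94.2 in their shared WT libraries. These are log2 fold changes of −2.56 ± 0.11 and −2.74 ± 0.12, or 16.9% and 14.9% of WT. BptfΔ measured 1.68 and 2.95 against 8.98 and 10.9 in WT, a log2 fold change of −2.09 ± 0.20. It was the only line whose Igf2 level lay below all 11 WT libraries. The libraries labelled Cecr2Δ measured 13.6, 14.2 and 13.6 against 34.5, 41.2 and 39.9, and Acf1Δ 15.7 and 11.9 against 37.5 and 37.8. The log2 fold changes of this pair were −1.48 ± 0.088 and −1.45 ± 0.11. Tip5Δ measured 32.8 and 34.1 against 50 and 46.6, a log2 fold change of −0.53 ± 0.10 that was not called. Igf2 in Rsf1Δ, WstfΔ, Acf1Δ and the group labelled Cecr2Δ lay between 11.9 and 16.6 normalized CPM, above the 2 WT libraries of batch C and below the other 9.

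H19 and Igf2 did not move in proportion. Per kilobase, the ratio of H19 to Igf2 in WT ran from a mean of 5.49 ± 0.230 (SD, n = 2) in batch B to 28.6 ± 3.13 (n = 2) in batch C. In Rsf1Δ it was 7.28 ± 0.217, above the 5.72 ± 0.0770 of WT, with H19 at 21.5% and Igf2 at 16.9% of WT. In WstfΔ it was 1.82 ± 0.120, in BptfΔ 0.0772 ± 0.0318 and in Acf1Δ 0.0743 ± 0.0584, so that Igf2 exceeded H19 per kilobase in BptfΔ and Acf1Δ. In the libraries labelled Cecr2Δ the ratio was 25.5 ± 1.18 (n = 3), against 8.79 ± 0.998 in WT, with H19 near WT and Igf2 at 35.8% of it. In Tip5Δ it was 8.51 ± 0.258 against 5.49 ± 0.230.

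**Figure D3:**
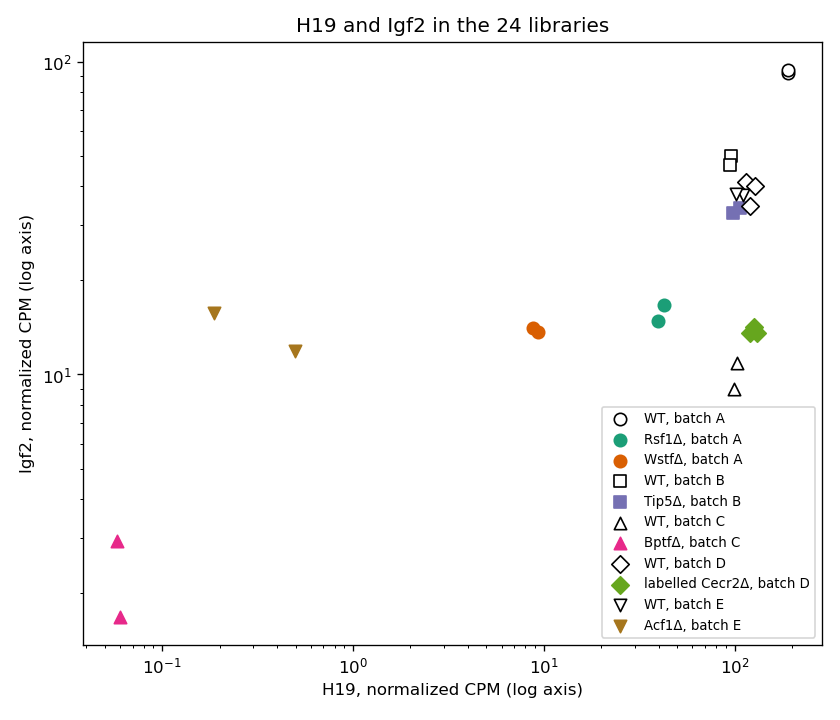
Normalized CPM of H19 (x axis) and Igf2 (y axis), both log axes, in the 24 libraries. Marker shape is the batch, open markers are WT and filled markers deletion lines. The libraries labelled Cecr2Δ have H19 between 121 and 131 with Igf2 between 13.6 and 14.2, and those of Acf1Δ have H19 at 0.187 and 0.494 with Igf2 at 15.7 and 11.9.

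Ascl2 was low throughout and was below WT of its batch in every library of the 6 lines. WstfΔ measured 1.66 and 1.54 normalized CPM against 5.35 and 4.18 in WT, and BptfΔ 1.38 and 0.751 against 3.15 and 3.62. The log2 fold changes were −1.57 ± 0.24 and −1.67 ± 0.27, and these were the called differences. BptfΔ libraries held 13 and 23 counts, so the value is imprecise. The other lines had log2 fold changes of −0.87 ± 0.19 (Rsf1Δ), −0.79 ± 0.14 (labelled Cecr2Δ), −0.56 ± 0.21 (Acf1Δ) and −0.33 ± 0.21 (Tip5Δ). WstfΔ, BptfΔ and Acf1Δ lay below all 11 WT libraries, whose lowest value was 2.54.

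On the Kcnq1 side, Cdkn1c changed in both directions. Acf1Δ measured 122 and 130 normalized CPM against 51.0 and 50.8 in WT of batch E, a log2 fold change of 1.31 ± 0.085 and the 1 called increase. Rsf1Δ measured 121 and 112 against 61.4 and 56.4, a log2 fold change of 0.98 ± 0.085 that lay just inside the 2-fold minimum. BptfΔ measured 27.7 and 23.7 against 69.0 and 70.6, a log2 fold change of −1.44 ± 0.096. Only the BptfΔ level was outside the range of the 11 WT libraries, 29.6 to 150, since WT of batch D lay between 123 and 150. WstfΔ and Tip5Δ had log2 fold changes of 0.34 ± 0.088 and 0.41 ± 0.092, and the libraries labelled Cecr2Δ one of −0.36 ± 0.066.

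Phlda2 and Slc22a18, the maternally expressed neighbours of Cdkn1c, were not called in any line. Phlda2 was lowest in BptfΔ, at 35.3 and 34.1 normalized CPM against 63.3 and 58.9 in WT, a log2 fold change of −0.82 ± 0.096. It was highest in Tip5Δ, at 122 and 120 against 83.6 and 84.3, a log2 fold change of 0.52 ± 0.085. Both lay outside the range of the 11 WT libraries, 58.9 to 119. Slc22a18 had log2 fold changes from −0.63 ± 0.24 in BptfΔ, which held 22 and 30 counts, to 0.81 ± 0.19 in WstfΔ.

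Kcnq1ot1, the antisense RNA that runs through Kcnq1, differed between lines and WT by less than it differed between batches. Its 4 libraries of batch C measured 46.1 to 74.3 normalized CPM and the other 20 libraries 1.27 to 4.0, in the batch where Rpph1 was also high. The part of RNA selection in this difference was not tested. Log2 fold changes ran from −0.61 ± 0.34 in Rsf1Δ, where it was 0.13 without WT replicate 2, to 0.12 ± 0.35 in WstfΔ, where it was 0.86 without that same library. In 5 of 6 lines the libraries of line and WT overlapped, the exception being Tip5Δ at 2.28 and 2.83 against 3.79 and 3.80. In the batches other than C the gene held 36 to 99 counts per library, and the SE of its log2 fold changes was 0.27 to 0.35, so differences of that size were not detectable. Kcnq1ot1 and Kcnq1 overlap on opposite strands, and the use of strand in counting is not given in the sources used here, so reads of the pair cannot be told apart.

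Cd81, Tssc4 and Nap1l4, whose imprinting is known mainly from placenta, had no called change. Cd81 was higher in WstfΔ, at 305 and 296 normalized CPM against 199 and 189, and in BptfΔ, at 312 and 325 against 199 and 201. These are log2 fold changes of 0.63 ± 0.058 and 0.67 ± 0.058, both above the highest WT library at 289. It was lower in Acf1Δ (−0.51 ± 0.057) and in Rsf1Δ (−0.42 ± 0.058), where it lay below all WT libraries. Tssc4 had log2 fold changes between −0.27 ± 0.059 and 0.20 ± 0.073, and Nap1l4 between −0.12 ± 0.048 and 0.21 ± 0.059.

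Line and WT libraries did not overlap in 45 of the 60 comparisons. With 2 libraries a group this was common among all genes: 67.1% of genes tested in Rsf1Δ, 76.9% in WstfΔ, 63.3% in Tip5Δ, 79.9% in BptfΔ and 63.2% in Acf1Δ, and 38.3% for the 3 libraries labelled Cecr2Δ. The 10 genes numbered 7, 8, 9, 8, 8 and 5 in these lines in the same order.

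The genes around the cluster were listed by position and include genes that are not imprinted. Of 27 listed neighbours, 18 passed the filter, and 25 of their 108 comparisons were called, 24 decreases and 1 increase, where 6.75% of all genes tested were called over the 6 lines. In Rsf1Δ and WstfΔ 6 neighbours fell in each, in Tip5Δ 1, in BptfΔ 6 with 1 that rose, in batch D 3 and in Acf1Δ 2. The median log2 fold change of the 18 was −0.83, −0.93, −0.09, −0.70, 0.05 and −0.05 in these lines, against −0.03 to 0.01 over all genes.

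Mir675, read here as long RNA over the miRNA's position inside H19, shares its reads with H19, so its 4 calls, counted among the neighbours above, repeat those of H19 and carry no p-value here. WT of batch A held 82 and 73 counts, Rsf1Δ 10 and 29 and WstfΔ 2 and 2, the last with a ratio of WT to line of 22.1 (95% exact interval 8.45 to 82.0). BptfΔ and Acf1Δ held 0 counts, which is at least 7.82-fold and 8.49-fold lower than WT at the floor of 3 counts per library. Tip5Δ, with 35 and 49 counts against 45 and 46, and the libraries labelled Cecr2Δ were not called.

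Igf2os, the antisense transcript of Igf2, was picked out after its values were seen because it overlaps Igf2. The pair lies on opposite strands, and how counting used strand is not known here, so its reads and those of Igf2 cannot be told apart where they overlap. Values of Igf2os are therefore given without p-values. The count assigned to Igf2os was lower in WstfΔ, at 0.290 ± 0.100 normalized CPM against 2.36 ± 0.107. It was also lower in Rsf1Δ, BptfΔ and the libraries labelled Cecr2Δ (log2 fold changes of −1.64 ± 0.34, −2.54 ± 0.60 and −1.63 ± 0.27). In Acf1Δ, where Igf2 was lower, Igf2os measured 1.25 ± 0.127 against 0.628 ± 0.107 and was not called (0.99 ± 0.37). Mrpl23, which encodes a mitochondrial ribosomal protein and is the nearest gene listed on the far side of H19, was called in none of the 6 lines, with log2 fold changes between −0.45 ± 0.11 and 0.25 ± 0.11. Its decrease in Acf1Δ had an edgeR adjusted p of 1.35e-03 at less than 2-fold. Ins2, between Igf2 and Th, had 0 counts in all 24 libraries.

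Dusp8, a dual-specificity phosphatase at chr7:142079487-142095907, fell in 5 lines. It went from 6.30 ± 0.341 normalized CPM in WT of batch A to 0.909 ± 0.0596 in WstfΔ (log2 fold change −2.79 ± 0.26, edgeR adjusted p = 1.77e-09) and to 1.23 ± 0.0762 in Rsf1Δ (−2.35 ± 0.22). It fell in Tip5Δ as well (−1.13 ± 0.20), where H19 was near WT, and did not pass in Acf1Δ. Lsp1, a leukocyte actin-binding protein, fell in the 5 lines other than Tip5Δ, with mean levels under 1 normalized CPM throughout. Tnnt3, which encodes a skeletal muscle troponin, fell in Rsf1Δ and WstfΔ from 15 and 14 counts in WT to 0 and 2 counts and to 0 counts in both libraries.

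On the Kcnq1 side calls were fewer. Kcnq1, a potassium channel gene, rose in BptfΔ from 0.286 ± 0.256 to 0.970 ± 0.0172 normalized CPM (log2 fold change 1.79 ± 0.54, edgeR adjusted p = 7.00e-03). Its antisense partner Kcnq1ot1 measured 56.3 and 46.1 normalized CPM in BptfΔ against 51.4 and 74.3 in WT, and reads of the pair cannot be told apart. Tnfrsf22 fell in BptfΔ from 5.24 ± 0.431 to 1.33 ± 0.491 (−1.98 ± 0.21, edgeR adjusted p = 8.65e-09), and Osbpl5 fell there by 1.01 on the log2 scale. Tnfrsf22 and Osbpl5 were named after their values were seen. Cars, Dhcr7 and Nadsyn1, beyond Nap1l4, were called in none of the lines.

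**Figure D4:**
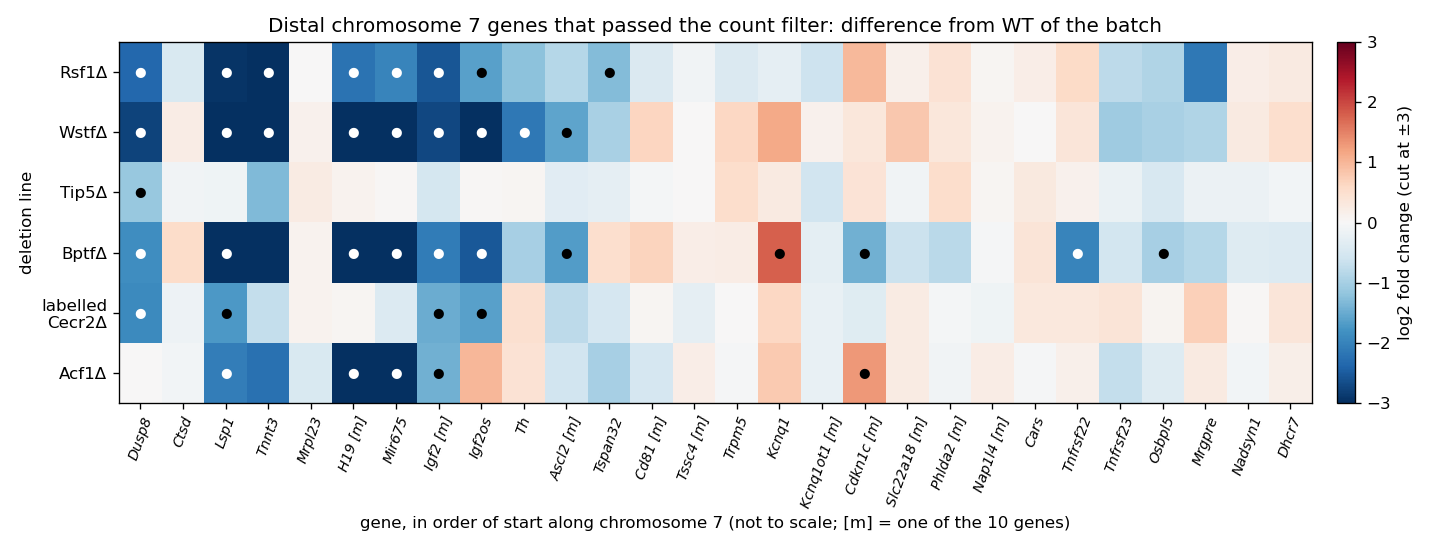
Log2 fold change against WT of the batch for the 28 genes of the region that passed the count filter (columns, in order of start along chromosome 7, not to scale) in the 6 lines (rows). Dots mark called differences, [m] marks the 10 genes, and colours are cut at ±3. Decreases lie mostly between Dusp8 and Ascl2, and the columns from Cars to Dhcr7 hold 2 calls, both in BptfΔ.

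Of 18 genes of IGF2 signaling, 17 passed the filter, and 15 of 102 comparisons were called, 14 of them decreases, where 6.75% of all genes tested were called over the 6 lines. By line, 4 were called in Rsf1Δ and in WstfΔ, 1 in Tip5Δ, 3 in BptfΔ and 3 in Acf1Δ, to be read beside the shares of 2.72% to 13.8% of all genes given above. The receptors Igf1r, Igf2r and Insr were called in none of the lines. Igf1, the related ligand, fell in Rsf1Δ, WstfΔ and BptfΔ at levels below 1.28 normalized CPM. Igfbp3, an IGF-binding protein, fell from 49.9 ± 2.05 normalized CPM to 20.4 ± 0.742 in Rsf1Δ (log2 fold change −1.29 ± 0.078, edgeR adjusted p = 5.52e-13) and to 9.16 ± 0.740 in WstfΔ (−2.44 ± 0.093, edgeR adjusted p = 2.14e-17). Irs1, an adaptor below the receptors, fell from 7.40 ± 0.869 normalized CPM in WT of batch A to 1.84 ± 0.108 in Rsf1Δ and 1.75 ± 0.221 in WstfΔ, and it fell in BptfΔ (log2 fold change −1.01 ± 0.18). Irs2 fell in Rsf1Δ (−1.31 ± 0.12) and WstfΔ (−1.14 ± 0.13). Irs4, a related adaptor, fell in BptfΔ from 0.992 ± 0.0821 to 0.0299 ± 0.0423.

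In Acf1Δ the called genes of this list were others. Igfbp5, an IGF-binding protein, fell from 0.887 ± 0.264 normalized CPM to 0.178 ± 0.147 (−2.26 ± 0.62). Igf2bp3 and Igf2bp2, proteins that bind Igf2 mRNA, fell from 124 to 35.4 normalized CPM (−1.81 ± 0.059, edgeR adjusted p = 3.15e-18) and from 193 to 84.7 (−1.19 ± 0.069, edgeR adjusted p = 6.60e-13). In Tip5Δ Grb10, an imprinted adaptor of chromosome 11 that restrains growth signaling, rose from 662 ± 12.3 to 1390 ± 2.75 (1.07 ± 0.061, edgeR adjusted p = 2.51e-13). In batch D 0 of 17 were called by edgeR or DESeq2, and 9 had an unadjusted p below 0.05.

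Among 18 factors that place, keep or read imprints, 14 of 108 comparisons were called, 13 of them decreases, beside the same 6.75% of all genes. By line, 4 were called in WstfΔ, 1 in Tip5Δ, 5 in BptfΔ, 1 in the group labelled Cecr2Δ and 3 in Acf1Δ. Ctcf, Zfp57, Trim28, Dnmt1 and Uhrf1 were called in none of the lines. Dnmt3l, the cofactor of the de novo DNA methyltransferases, fell in WstfΔ from 340 ± 2.67 to 50.2 ± 2.25 normalized CPM (log2 fold change −2.76 ± 0.063, edgeR adjusted p = 3.51e-22). It fell in BptfΔ from 297 ± 0.411 to 55.9 ± 0.928 (−2.41 ± 0.062) and in the libraries labelled Cecr2Δ from 335 ± 17.1 to 144 ± 1.44 (−1.21 ± 0.046). Dnmt3a, a de novo methyltransferase, fell in BptfΔ from 184 ± 2.92 to 29.7 ± 2.33 (−2.63 ± 0.068, edgeR adjusted p = 2.32e-21) and rose in Acf1Δ from 134 ± 5.43 to 299 ± 20.6 (1.15 ± 0.059, edgeR adjusted p = 5.57e-14). Dppa3, a factor that protects maternal methylation in the early embryo, fell in WstfΔ, Tip5Δ, BptfΔ and Acf1Δ (−3.14 ± 0.37, −1.13 ± 0.22, −4.02 ± 0.39 and −2.15 ± 0.25). Ctcfl, the germline paralog of CTCF, fell in WstfΔ, BptfΔ and Acf1Δ, with log2 fold changes of −1.85 ± 0.57, −4.23 ± 0.76 and −1.94 ± 0.45. In Rsf1Δ 0 of 18 were called by edgeR or DESeq2, and 10 had an unadjusted p below 0.05.

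Markers of other cell types moved in the same lines, and in bulk RNA fewer cells of a type and less RNA per cell cannot be told apart. Of 7 primitive endoderm markers (Gata6, Gata4, Sox17, Sox7, Pdgfra, Dab2 and Foxa2), 6 fell in Rsf1Δ, 5 in WstfΔ, 7 in Tip5Δ, 7 in BptfΔ and 6 in the libraries labelled Cecr2Δ. Of all genes, 5.26%, 6.57%, 2.63%, 8.59% and 2.33% fell in these 5 lines. In Acf1Δ 0 of 7 were called by edgeR or DESeq2, although 6 had an unadjusted p below 0.05. Their summed level was 330 to 338 normalized CPM in WT of batch A against 139 to 147 in Rsf1Δ and 133 to 139 in WstfΔ. It was 333 to 353 in WT of batch B against 73.1 to 80.2 in Tip5Δ, 145 to 153 in batch C against 13.9 to 14.4 in BptfΔ, and 101 to 117 in batch D against 29.5 to 34.1 in the libraries labelled Cecr2Δ. In batch E it was 242 to 249 in WT and 269 to 306 in Acf1Δ.

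H19 and this sum were both lower in Rsf1Δ, WstfΔ and BptfΔ. In Tip5Δ and the group labelled Cecr2Δ the sum was lower with H19 near its WT level, and in Acf1Δ H19 was lower and the sum was not. Of the 7 trophectoderm markers that passed the filter, 4 fell in Rsf1Δ, 3 in WstfΔ, 0 in Tip5Δ (by edgeR or DESeq2, 2 with an unadjusted p below 0.05), 3 in BptfΔ, 3 in Acf1Δ and 4 in the group labelled Cecr2Δ, where 2.33% (the group labelled Cecr2Δ) to 8.59% (BptfΔ) of all genes fell. The sum over all 8 listed was 14.4 to 35.3 normalized CPM in WT and 7.12 to 20.1 in the lines. Krt7 fell in the 5 lines other than Tip5Δ, and Eomes rose in WstfΔ (log2 fold change 1.05 ± 0.19). The part of these cell types in the levels of H19, Igf2 and Ascl2 was not tested. Of 7 fibroblast markers, 4 passed the filter, with 16 calls in 24 comparisons, 15 of them decreases (6.75% of all genes were called over the 6 lines), and the sum over all 7 was between 2.54 and 32.2 normalized CPM in all libraries. The mesoderm list gave 5 calls in 18 comparisons, 2 increases (Kdr in BptfΔ and the group labelled Cecr2Δ) and 3 decreases (Kdr in WstfΔ and Tip5Δ, T in BptfΔ). Its sum was 12.5 to 13.2 normalized CPM in BptfΔ against 3.91 to 4.09 in WT of batch C. The neural list gave 8 calls in 24, 2 increases (Sox1 in WstfΔ and BptfΔ) and 6 decreases, all of Pax6 or Nes. Both lists stand beside the same 6.75% of all genes. The pluripotency list gave 3 calls in 36, all increases (Klf4 in WstfΔ and BptfΔ, Esrrb in BptfΔ). The sum over the list was 3464 to 3468 normalized CPM in Rsf1Δ and 3763 to 3809 in WstfΔ, against 2527 to 2618 in WT of their batch. It was 3020 to 3119 in Tip5Δ (3086 to 3095 in WT), 3898 in both BptfΔ libraries (2611 to 2677), 3892 to 4117 in the group labelled Cecr2Δ (3436 to 3705) and 3762 to 3910 in Acf1Δ (3182 to 3390).

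Across the 24 libraries, after subtracting the WT mean of each batch, the genes with patterns most like H19 were Baz1a (Pearson r = 0.96), Elmo1 (0.95) and Nsmaf (0.95), out of 12033 genes with a mean log2 CPM of at least 1. Baz1a is the gene deleted in Acf1Δ, and it was also lower in BptfΔ (log2 fold change −1.74 ± 0.071). Its log2 fold changes were −0.83 ± 0.067 in WstfΔ, −0.64 ± 0.064 in Rsf1Δ, 0.10 ± 0.062 in Tip5Δ and −0.47 ± 0.051 in the group labelled Cecr2Δ. For Igf2 the nearest were Prss23 (0.96), Slc5a5 (0.96) and Slc25a24 (0.96), for Ascl2 Lcp1 (0.95), Wnt4 (0.95) and Nrk (0.94), and for Cdkn1c Skor1 (0.95), Ydjc (0.94) and Urah (0.94). Within the cluster the highest coefficients were those of Igf2 with Ascl2 (0.86), Cdkn1c with Phlda2 (0.69), Cdkn1c with Nap1l4 (0.69) and H19 with Ascl2 (0.69), and the lowest those of Cdkn1c with Cd81 (−0.74) and H19 with Tssc4 (−0.64). H19 with Igf2 stood at 0.62. Over the 13 libraries of deletion lines alone, the order changed: Cdkn1c with Phlda2 and Cdkn1c with Nap1l4 were highest (0.71 for both), Igf2 with Ascl2 stood at 0.62 and H19 with Igf2 at 0.35, and H19 with Tssc4 (−0.85), Cdkn1c with Cd81 (−0.77) and Ascl2 with Cd81 (−0.76) were lowest. Libraries of a line share their clone and those of a batch their batch, so these coefficients describe the 24 libraries and carry no p-value.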

How the data were processed

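RNA of WT mESCs and 6 deletion lines was sequenced in 24 libraries. The deposited values are read counts per gene, which the authors made by spliced HISAT2 alignment to mm10 through QuasR and counting over UCSC known genes. How reads were assigned to genes, strand included, is not given in the sources used here. The submitters' processing notes name bcl2fastq 2.17 and HISAT2. The methods give TruSeq RNA Library Prep Kit v2, the labels a stranded mRNA kit. IDs were named from the RefSeq GRCm38.p6 gene table (24570 of 24594 matched), strands from GENCODE.

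Counts were fitted with edgeR 4.0.16 (R 4.3.3; quasi-likelihood test, TMM, filterByExpr) on all 24 libraries, with batch and genotype as terms. P-values were adjusted by Benjamini-Hochberg over 15682 genes. An absolute log2 fold change above 1 with an adjusted p below 0.01 was called, after the study's thresholds. The SE of a log2 fold change was taken from its size and the F statistic (size over root F), and list levels are means ± SD. DESeq2 1.42.0 was an alternative, and the closing section gives the effect of the others. The fits were tested on simulated data. P-values measure the spread between libraries of 1 clone.

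The members and lists were chosen with earlier results of these data known, and some lists came from an earlier analysis. Named genes are all members, per list and line up to 2 called genes with the largest increase and 2 with the largest decrease, and for each called member the 3 genes with the highest correlation. Igf2os, Mrpl23, Ins2, Tnfrsf22, Osbpl5, Cars, Dhcr7, Nadsyn1, Irs2, Igf2bp2, the IGF receptors, Dnmt3a in BptfΔ and the uncalled imprint factors were named after their values were seen. Replicate numbers are shared between groups, but same-numbered libraries did not deviate together (15 pairs, correlations from −0.26 to 0.10). Replicates of a group differed by more than counting noise (chi-square per gene of 1.38 to 20.4 over 15 pairs), so none were merged.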

Additional observations from a re-analysis of the deposited data

How the results depend on the processing

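The counts of the 10 genes called, of 13 over the 6 lines, were unmoved by more than 1.5 times with the newer quasi-likelihood form, DESeq2, library size scaling, no filter or a stricter filter (a minimum of 50 counts), and fits on own-batch libraries. Without the batch term, 1 gene was called in Rsf1Δ, 1 in WstfΔ, 0 in the group labelled Cecr2Δ and 1 in Acf1Δ. Of all genes, 0.854%, 3.19%, 3.93% and 0.976% were then called in these lines (5.91%, 10.4%, 3.11% and 4.45% with the term). The log2 fold change of Igf2 without the term was −1.70 in both the group labelled Cecr2Δ and Acf1Δ (−1.48 and −1.45 with it). Without the term, H19 and Igf2 were at −1.58 and −1.51 in Rsf1Δ, Igf2 at −1.69 in WstfΔ and Cdkn1c at 0.72 in Acf1Δ. Igf2 in BptfΔ moved the other way, to −4.27 from −2.09 with the term. Uncalled values of Cdkn1c turned in sign from 0.41 to −0.90 in Tip5Δ, from 0.34 to −0.04 in WstfΔ and from −0.36 to 0.51 in the group labelled Cecr2Δ. That of Rsf1Δ kept its sign (0.98 to 0.61). Uncalled values of other genes turned as well, such as Kcnq1ot1 from 0.12 to −2.13 in WstfΔ and from −0.29 to 1.94 in BptfΔ. The lists without the term held 9 calls among neighbours and 6 in the IGF2 list, with 4.18% of all genes called over the 6 lines. In a test against a 2-fold change the neighbours held 7 calls and the IGF2 list 6, with 2.45% of all genes called over the 6 lines. With no minimum of fold change, 6 of the 10 genes passed in Rsf1Δ, 7 in WstfΔ, 3 in Tip5Δ, 4 in the group labelled Cecr2Δ and 5 in Acf1Δ (of all genes 20.6%, 34.7%, 9.07%, 18.4% and 31.8%), beside 40 calls among neighbours, 58 in the IGF2 list and 47 among imprint factors, with 26% of all genes called over the 6 lines. The last setting drops a criterion by construction, and for the others the cause was not tested.

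Some alternatives were chosen after seeing the data. Requiring a level outside the range of all 11 WT libraries left 1 gene in Rsf1Δ, 0 in the group labelled Cecr2Δ and 1 in Acf1Δ. Leaving out batch C, or the 3 libraries labelled Cecr2Δ, moved no count of called members in the remaining lines by more than 1.5 times. Leaving out 1 library at a time gave 3 to 3 called genes in Rsf1Δ (2 with all libraries), 3 to 3 in WstfΔ, 0 to 0 in Tip5Δ, 4 to 4 in BptfΔ, 1 to 1 in the group labelled Cecr2Δ and 3 to 3 in Acf1Δ. It gave 21 to 25 calls among neighbours, 13 to 15 in the IGF2 list, 13 to 14 among imprint factors and 7 to 9 genes differing between WT batches. A lone library is assumed to vary like the other groups.

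With the replicate number as a block, 2, 3, 0, 4, 1 and 3 of the 10 genes were called in Rsf1Δ, WstfΔ, Tip5Δ, BptfΔ, the group labelled Cecr2Δ and Acf1Δ, and the lists held 19, 15 and 13 calls. The numbers did not pair the libraries. Since same-numbered libraries of Acf1Δ and its WT correlated at −0.26, a block with crossed numbers was added, which gave 681 calls over all genes in Acf1Δ, against 641 with the numbers as labelled and 698 without a block. H19 in Acf1Δ had a log2 fold change of −9.11 without Acf1Δ replicate 2. At 1 to 14 counts a library, depth limits the size of the H19 decrease in BptfΔ and Acf1Δ, not its direction.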
